A study of Mus musculus with 3 samples.

Results

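The let-7 and miR-98 guide strands are 9 mature microRNAs (miRNAs), namely mmu-let-7a-5p, mmu-let-7b-5p, mmu-let-7c-5p, mmu-let-7d-5p, mmu-let-7e-5p, mmu-let-7f-5p, mmu-let-7g-5p, mmu-let-7i-5p and mmu-miR-98-5p. They were selected by name from the 1915 mature miRNAs listed for each library, and all 9 were among the 648 miRNAs whose mean over the libraries reached 1 RPM, the unit of the deposited levels (the miRNA reads of each library are scaled to a sum of 1000000). Small RNAs were sequenced from the retinas of C57BL/6 mice (C57BL/6J in the study's methods) on postnatal days 1, 7 and 17 (P1, P7, P17), to follow miRNA expression while the retina develops. Each age was 1 library made from the retinas of 5 eyes, so that pooling hides the spread between animals and no replicate library stands behind any comparison of ages. Depth was even, with 11426320 miRNA reads in the P1 library, 12759995 in the P7 library and 11659722 in the P17 library. The intervals given here are 95% intervals for counting error alone, because 1 library per age gives no spread between samples. Reads amplified by PCR were not tagged with molecular identifiers, so even these intervals can be too narrow.

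MiRNAs of the let-7 family are cut from hairpin precursors by the nucleases DROSHA and DICER. One arm of the hairpin, here the 5p arm or guide strand, is loaded into an Argonaute protein and pairs through its seed with messenger RNAs, while the other arm, the 3p or passenger strand, is mostly degraded. The family is known as a timer of development: its guides accumulate as progenitor cells leave the cell cycle and differentiate, and the RNA-binding protein LIN28 blocks the processing of many let-7 precursors in immature cells. In the retina, let-7 miRNAs are known to take part in the progression of progenitors from early to late fates.

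The 9 guide strands were almost the same molecule, and their sequences are shown first because they define which reads could be told apart. Each was 22 bases long in the RefSeq table of GRCm38.p6, and each carried the seed GAGGUAG at bases 2 to 8, which is printed in capitals.
mmu-let-7a-5p: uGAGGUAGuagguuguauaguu
mmu-let-7b-5p: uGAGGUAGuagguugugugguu
mmu-let-7c-5p: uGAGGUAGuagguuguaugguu
mmu-let-7d-5p: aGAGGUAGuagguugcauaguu
mmu-let-7e-5p: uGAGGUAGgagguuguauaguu
mmu-let-7f-5p: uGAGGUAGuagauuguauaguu
mmu-let-7g-5p: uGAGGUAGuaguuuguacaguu
mmu-let-7i-5p: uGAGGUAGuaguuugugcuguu
mmu-miR-98-5p: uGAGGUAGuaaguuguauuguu

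All 9 sequences had the same base at 14 of the 22 positions, and the 36 pairs of members differed by 1 to 6 bases. Counting positions from the 5′ end and taking let-7a as the reference, let-7c differed by A19G, let-7e by U9G and let-7f by G12A. The substitution that parts let-7b from let-7c was A17G, with let-7c as the reference. These 4 pairs were separated by 1 base, so a sequencing error at that base would move a read from one name to the other. The most distant member from let-7a was let-7i, with G12U, A17G, U18C and A19U, and its nearest member was let-7g. How the counting treated mismatches is not given in the sources used here. Because all members had the same length, their reads were compared with each other directly, although how efficiently each one was captured in the libraries was not measured.

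Together the 9 guides took 2126035 reads in the P1 library, 1801452 in the P7 library and 1797696 in the P17 library. These were 18.6% of all miRNA reads at P1 (Wilson interval 18.58 to 18.63), 14.1% at P7 (14.10 to 14.14) and 15.4% at P17 (15.40 to 15.44). The family total was thus highest at P1 and lowest at P7 as a share of the library. Its log2 ratio was -0.40 from P1 to P7, 0.13 from P7 to P17 and -0.27 from P1 to P17, none of which reached 2-fold. The direction from P1 to P17 depended on the scaling, since size factors by the median of ratios, which set the median miRNA close to 0, gave 0.77. In whole retina, fewer cells of a type and less of an RNA per cell cannot be told apart.

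Within this total the leading member changed. At P1 the most abundant member was let-7i, and at P17 it was let-7f. Let-7i counted 845314 reads in the P1 library, 438365 in the P7 library and 182024 in the P17 library, which were 73979.5, 34355 and 15611 RPM. It was the miRNA of rank 3 in the whole P1 library, rank 8 at P7 and rank 17 at P17. Its level was therefore lowest in the oldest library. On the log2(RPM + 1) scale let-7i fell by 1.11 at the first step (exact binomial interval of the log2 ratio -1.11 to -1.10) and by 1.14 at the second (-1.15 to -1.13). Over both steps its level was 4.74-fold lower.

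Let-7f counted 461870 reads in the P1 library, 565071 in the P7 library and 720158 in the P17 library, which were 40422, 44285 and 61765 RPM. It ranked 7, 6 and 5 among all miRNAs at the successive ages. Its level was therefore highest in the oldest library, with a log2(RPM + 1) difference of 0.13 at the first step and 0.48 at the second. The sum of 0.61 from P1 to P17 did not reach 2-fold. The ratio of let-7f to let-7i reads, which no scaling can alter, was 0.546 at P1, 1.29 at P7 and 3.96 at P17.

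Let-7c and let-7b, which differ by 1 base, were the members that rose past 2-fold from P1 to P17. Let-7c counted 116289 reads in the P1 library, 190884 in the P7 library and 245185 in the P17 library, or 10177, 14960 and 21028 RPM. Let-7b had 8297, 16560 and 21314 reads at the same ages, or 726, 1298 and 1828 RPM. Both were lowest at P1 and highest at P17, and the log2(RPM + 1) change over both steps was 1.05 for let-7c and 1.33 for let-7b. Let-7c was close to the criterion, with a 2.07-fold ratio. The ratio of let-7c to let-7b reads was 14.0 at P1, 11.5 at P7 and 11.5 at P17.

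Let-7g and let-7a, which are abundant and ubiquitous members of the family, were nearer to level. The let-7g reads numbered 348078, 338219 and 340427 in order of age, or 30463, 26506 and 29197 RPM. The let-7a reads numbered 268469, 197257 and 230308, or 23496, 15459 and 19752 RPM. Both were lowest at P7, and their log2(RPM + 1) differences from P1 to P17 were -0.06 for let-7g and -0.25 for let-7a. The ratio of let-7c to let-7a, which differ by A19G, was 0.433, 0.968 and 1.06 in order of age.

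The remaining members were scarcer than all of those above except let-7b. The let-7d reads numbered 41536, 32061 and 36924 in order of age, or 3635, 2513 and 3167 RPM. Let-7e had 21789, 14018 and 14857 reads, or 1907, 1099 and 1274 RPM. These also had their lowest RPM at P7, like let-7a and let-7g. MiR-98, which shares the let-7 seed under another name, had 14393, 9017 and 6499 reads, or 1260, 707 and 557 RPM. It was lower at each successive age and its change of -1.17 from P1 to P17 passed the 2-fold criterion, with a ratio of 2.26-fold.

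**Figure D1:**
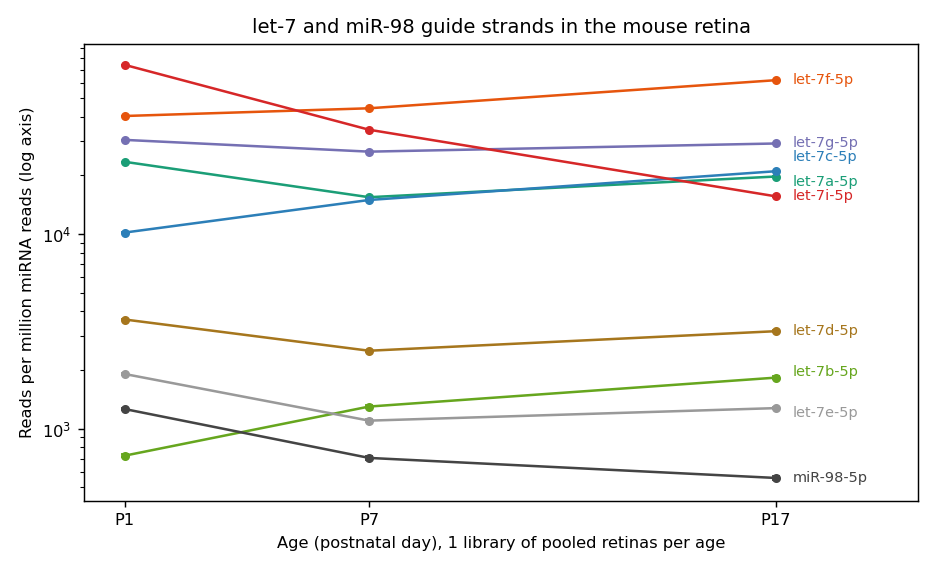
Level of each guide strand in RPM (log axis) against postnatal day, 1 point per library, with 95% Wilson intervals that are smaller than the points. Let-7i starts highest at 73979.5 RPM and ends at 15611 RPM, rank 5 of the 9, while let-7f ends highest at 61765 RPM.

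The composition of the family was read from the share of each member in the summed reads of the 9, a quantity within each library. Let-7i made up 39.8% of the family at P1 (Wilson interval 39.7 to 39.8), 24.3% at P7 (24.3 to 24.4) and 10.1% at P17 (10.1 to 10.2). Let-7f made up 21.7% at P1, 31.4% at P7 and 40.1% at P17 (40.0 to 40.1). From P1 to P17 the share of let-7i thus fell by 29.6 percentage points, while let-7f gained 18.3 points and let-7c gained 8.17 points. Let-7c held 5.47% of the family at P1, 10.6% at P7 and 13.6% at P17. Let-7g gained 2.56 points, and the other 5 members each moved by less than 1 point. The 5 most abundant members, let-7a, let-7c, let-7f, let-7g and let-7i, held 95.95% of the family at P1, 96.02% at P7 and 95.57% at P17. Without let-7i, the other 8 members summed to 112085 RPM at P1, 106825 at P7 and 138569 at P17, a log2 ratio of 0.31 from P1 to P17 where the full sum gave -0.27.

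**Figure D2:**
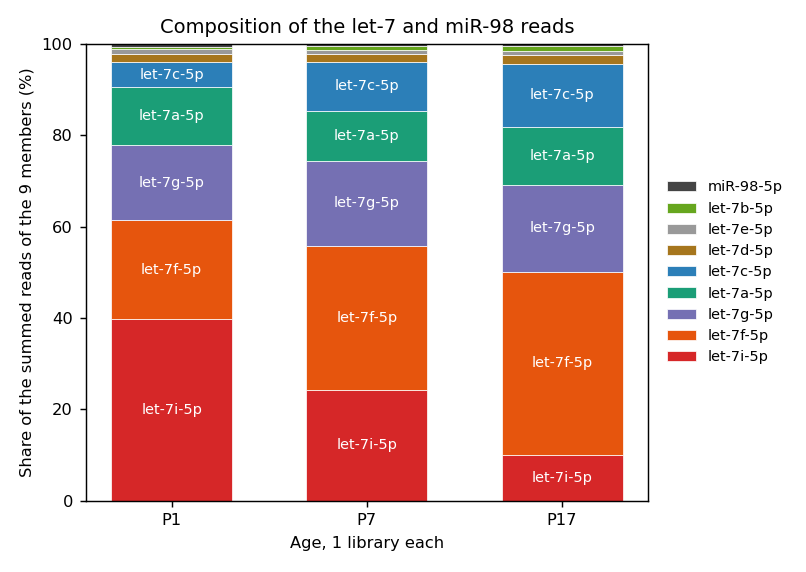
Stacked bars of the percentage of the summed family reads held by each of the 9 members in the P1, P7 and P17 libraries. The let-7i segment shrinks from 39.8% to 10.1% and the let-7f segment grows from 21.7% to 40.1%.

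The members did not move as 1 group over the 2 steps. Let-7i and miR-98 were lower at each step, as were 316 of the 648 miRNAs. Let-7a, let-7d, let-7e and let-7g were lower at P7 and higher again at P17, a sequence of signs that 244 of the 648 shared. Let-7b, let-7c and let-7f were higher at each step, which held for 68 of the 648. The median member differed by -0.53 from P1 to P7 on the log2(RPM + 1) scale, beside a median of -0.87 for all 648. From P7 to P17 the medians were 0.33 and -0.05, and from P1 to P17 they were -0.20 and -0.91. Relative to the median of all miRNAs, 7 of the 9 members lay above it from P1 to P17 and let-7i and miR-98 lay below.

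**Figure D3:**
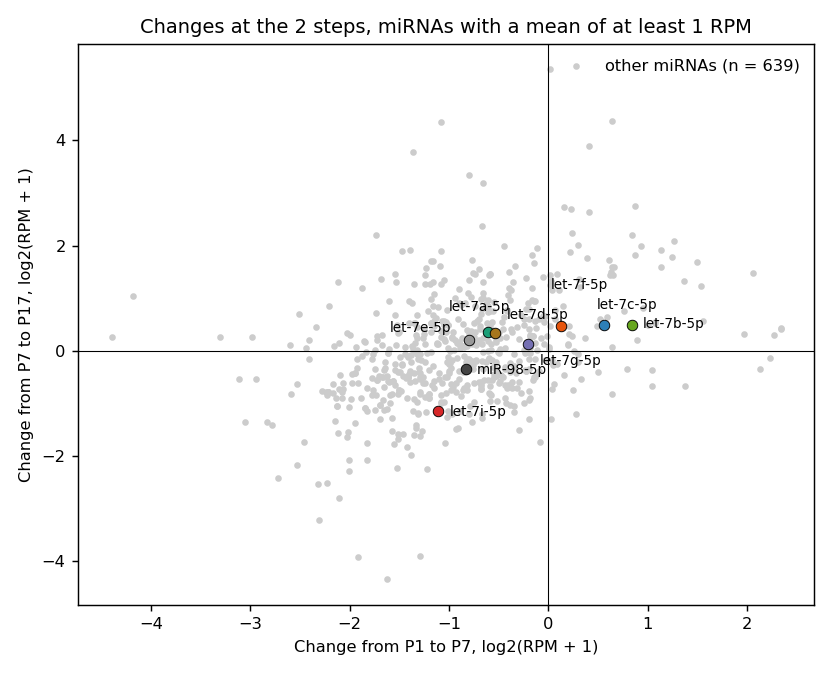
Difference in log2(RPM + 1) from P7 to P17 against that from P1 to P7 for the 9 members (coloured) and the other 639 of the 648 miRNAs (grey). Let-7i and miR-98 lie in the lower left part, let-7b, let-7c and let-7f in the upper right, and the other members in the upper left.

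Few members passed the 2-fold criterion, and falls of that size were common among all miRNAs. From P1 to P7, let-7i was the 1 member over 2-fold lower, while 44.8% of the 648 miRNAs were, and no member was over 2-fold higher, beside 3.09% of all. From P7 to P17, let-7i was again the 1 member over 2-fold lower, where 11.6% of all were, and none was over 2-fold higher, where 14.0% of all were. From P1 to P17, let-7i and miR-98 were 2 of 9 members over 2-fold lower beside 46.8% of all, and let-7b and let-7c were 2 of 9 over 2-fold higher beside 10.5% of all. Among all 648 miRNAs ordered from the largest fall, let-7i was at place 113 from P1 to P17 and at place 60 from P7 to P17.

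RPM is a share of each library, and the photoreceptor miRNAs miR-182-5p, miR-183-5p and miR-96-5p took a larger part of it after P1, with miR-182-5p alone at 41292 RPM in the P1 library and 181186 RPM in the P7 library. Median-of-ratios size factors raised every log2 ratio by 0.96 at the first step, by 0.08 at the second and by 1.05 over both. Under that scaling 0 members were over 2-fold lower from P1 to P7 beside 11.0% of all miRNAs, and let-7b, let-7c and let-7f were 3 members over 2-fold higher beside 9.57%. The log2 ratio of let-7i at that step was then -0.15. From P7 to P17, let-7i was still the 1 member over 2-fold lower, beside 10.6% of all, and no member was over 2-fold higher, beside 16.0%. From P1 to P17, let-7i was the 1 member over 2-fold lower, beside 23.9% of all, and let-7b, let-7c and let-7f were over 2-fold higher, beside 25.5%.

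Let-7i was lower from P1 to P17 under all 6 scalings, with log2 ratios from -2.30 to -1.20, and miR-98 was too, with ratios from -1.23 to -0.13. Let-7b, let-7c and let-7f were higher under all 6. For let-7c the log2 ratio ran from 0.99 to 2.09, for let-7b from 1.28 to 2.38 and for let-7f from 0.56 to 1.66. The direction of let-7a, let-7d and let-7g from P1 to P17 turned positive under 4 of the 6 scalings, which were median-of-ratios factors, TMM factors and totals that left out either the 10 most abundant miRNAs of each library or the miR-183 cluster. That of let-7e turned positive under 2, median-of-ratios and TMM factors.

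**Figure D4:**
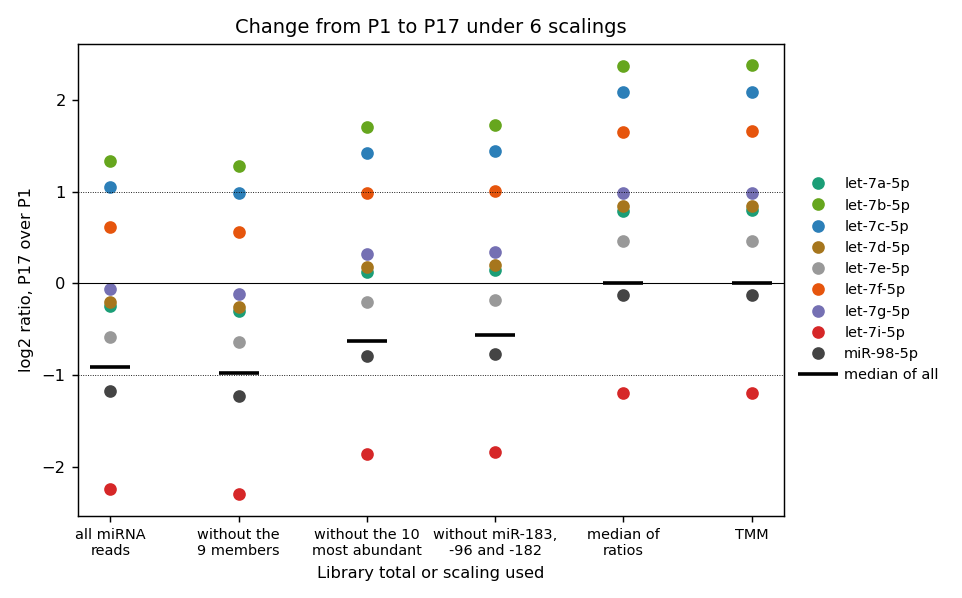
Log2 ratio of P17 over P1 for the 9 members under 6 scalings, with the median of all 648 miRNAs as a black bar and dotted lines at 2-fold. Each scaling shifts all members together, and let-7i stays below -1 and let-7b above 1 throughout.

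The 9 guides came from 12 hairpins in the RefSeq table, since let-7a, let-7c and let-7f each have 2 genes. Let-7i, the member that fell most, has a single gene, Mirlet7i, at chr10:122985640-122985724 on the minus strand of GRCm38.p6, inside an exon of the transcribed pseudogene D630033A02Rik. Let-7f has 2, Mirlet7f-1 at chr13:48537829-48537917 on the minus strand, inside an exon of the long non-coding RNA 6720427I07Rik, and Mirlet7f-2 at chrX:151912346-151912428 on the plus strand, in an intron of the ubiquitin ligase gene Huwe1. These hairpins are shown, with both arms in capitals, because let-7i led the family at P1 and let-7f led it at P17.
Mirlet7i: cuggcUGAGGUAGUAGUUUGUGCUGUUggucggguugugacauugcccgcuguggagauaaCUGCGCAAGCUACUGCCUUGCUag
Mirlet7f-1: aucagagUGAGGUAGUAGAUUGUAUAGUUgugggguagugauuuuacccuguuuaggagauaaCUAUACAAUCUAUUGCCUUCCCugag
Mirlet7f-2: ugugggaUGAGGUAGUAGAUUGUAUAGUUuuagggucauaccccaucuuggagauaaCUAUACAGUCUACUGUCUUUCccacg

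Several members lie beside each other in the genome and can share a primary transcript. Mirlet7d, Mirlet7f-1 and Mirlet7a-1 lie in that order on chromosome 13 within exons of 6720427I07Rik, with 1714 bases between the first pair and 261 between the second. Let-7d and let-7a guides kept a nearly constant ratio, 0.155, 0.163 and 0.160 in order of age. Let-7f, which has a gene in the same transcript, did not keep its ratio to let-7a, which was 1.72, 2.86 and 3.13. On the X chromosome, Mirlet7f-2 and Mir98 lie 785 bases apart in Huwe1, and the ratio of let-7f to miR-98 was 32.1, 62.7 and 111 in order of age. Mirlet7c-2 and Mirlet7b lie 621 bases apart on chromosome 15 in exons of Lncppara. Because reads of a guide with 2 genes cannot be assigned to either, these ratios mix both sources for let-7a, let-7c and let-7f.

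The genes that stand alone or in introns completed the set. Mirlet7g lies on chromosome 9 in an intron of Wdr82, which encodes a subunit of a histone methyltransferase complex. Mirlet7e lies on chromosome 17 in an intron of Spaca6, Mirlet7c-1 on chromosome 16 in an intron of Mir99ahg, and Mirlet7a-2 on chromosome 9 in an intron of the non-coding gene 3110039I08Rik.

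LIN28 is known to bind let-7 precursors between their arms, through the letters GGAG by its zinc knuckles and, in some precursors, through a second site by its cold shock domain. Both sets of letters were therefore searched for on the transcript strand of each hairpin between the guide and the passenger. GGAG was found in 9 of the 12 hairpins and in 8.07% of 644 hairpins with both arms listed, and it was absent between the arms of let-7b, let-7c-2 and miR-98. GAU or GAC, not overlapping GGAG, was found in 7 of the 12 and in 33.5% of the 644. The stretches between the arms are shown for 4 hairpins with these letters in capitals, to set the single let-7i gene beside let-7f and let-7a.
Mirlet7i: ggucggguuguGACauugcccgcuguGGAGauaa
Mirlet7f-1: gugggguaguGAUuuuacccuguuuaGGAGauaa
Mirlet7f-2: uuagggucauaccccaucuuGGAGauaa
Mirlet7a-1: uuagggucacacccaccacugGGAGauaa

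The hairpins of let-7d, let-7e, let-7f-1, let-7g and let-7i held both sets of letters. Log2(RPM + 1) differences of their guides from P1 to P17 were, in that order, -0.20, -0.58, 0.61, -0.06 and -2.24. With median-of-ratios factors they were 0.85, 0.46, 1.66, 0.98 and -1.20. Reads of the let-7f guide also come from let-7f-2, whose hairpin held neither GAU nor GAC. Whether the letters go with the direction of change was not tested. A grouping known for this family rests on a longer site than these letters. By it, precursors of let-7b, let-7d, let-7g, let-7i and miR-98 carry a cold shock domain site. The guides let-7a, let-7c, let-7e and let-7f, whose precursors lack it at least in part, were set here as the other group. Every hairpin of the first group held GAU or GAC. Of the others, let-7a-1, let-7a-2, let-7c-1, let-7c-2 and let-7f-2 held neither, while let-7e and let-7f-1 held GAC or GAU. Between these 2 groups of guides the letters thus differed except in let-7e and let-7f-1. Guide reads of the 2 let-7f genes cannot be divided, so which group the let-7f reads belong to was not settled. The first group held 59.2%, 46.3% and 32.7% of the family reads in order of age. Let-7a, let-7c, let-7e and let-7f held 40.8%, 53.7% and 67.3%. Let-7f alone held 21.7%, 31.4% and 40.1% of the family, so the size of this contrast depends on where let-7f is placed. With let-7i left out of both the group and the family, the first group held 32.2%, 29.0% and 25.1%. Its share was thus lower at each successive age with and without let-7i. In RPM, its 4 members other than let-7i summed to 36084, 31023 and 34749 in order of age, a log2 ratio of -0.05 from P1 to P17. Among them let-7b rose from 726 to 1828 RPM, while let-7d, let-7g and miR-98 were lower at P17 than at P1. A match to such letters is a description of the hairpin and not of binding.

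Each passenger strand was scarcer than its own guide, and the ratio of the arms, which no scaling alters, differed between ages in several hairpins. The levels of the passengers by themselves are given in RPM and depended on the scaling. Let-7i-3p counted 339 reads in the P1 library, 276 in the P7 library and 261 in the P17 library, or 29.7, 21.6 and 22.4 RPM. The passenger differed by -0.39 from P1 to P17 on the log2(RPM + 1) scale (0.61 with median-of-ratios factors), while its guide differed by -2.24 (-1.20 with those factors). The let-7i guide outnumbered the passenger 2494-fold at P1, 1588-fold at P7 and 697-fold at P17, a change in the log2 ratio of -1.84 from P1 to P17 (log-scale normal interval -2.07 to -1.61). Among 190 hairpins with both arms measured, the median change was 0.16 and the middle 90% ran from -1.90 to 1.77, which put let-7i at place 13 from the lowest and inside that range.

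For let-7f the ratio of guide to passenger moved in the opposite direction. Let-7f-1-3p, from the gene on chromosome 13, counted 365, 265 and 134 reads in order of age, a log2 ratio of -1.47 from P1 to P17 (exact binomial interval -1.77 to -1.19). Let-7f-2-3p, from the gene on the X chromosome, had 361, 394 and 316 reads and a log2 ratio of -0.22, with an interval of -0.44 to 0.00 that reached 0. With median-of-ratios factors the log2(value + 1) differences were -0.41 for let-7f-1-3p and 0.79 for let-7f-2-3p, so the direction of let-7f-2-3p turned with the scaling. The passengers of the 2 genes thus had like counts at P1, and that of the chromosome 13 gene was the scarcer at P17. Summed over both genes, the log2 ratio of let-7f guide to passenger rose by 1.33 (log-scale normal interval 1.161 to 1.501).

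The passengers of let-7a and let-7c could not be told apart. Let-7a-1-3p and let-7c-2-3p have the same mature sequence, which is shown because it was listed under both names.
mmu-let-7a-1-3p and mmu-let-7c-2-3p: cuauacaaucuacugucuuucc

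Both names carried 14521, 10105 and 5577 reads in order of age, and identical counts were found in all 4 sets of names with 1 shared sequence among the 1623 names with a sequence, so such reads were counted under each name. The summed let-7a and let-7c guides outnumbered this passenger 26.5-fold at P1, 38.4-fold at P7 and 85.3-fold at P17. At 1271 RPM in the P1 library it was more abundant than the guides let-7b and miR-98. Its own level differed by -1.41 from P1 to P17 on the log2(RPM + 1) scale and by -0.36 with median-of-ratios factors. The passenger that belongs to let-7c alone, let-7c-1-3p, counted 47, 156 and 85 reads. That of let-7a alone, let-7a-2-3p, had 5, 3 and 8 reads, too few to read a direction.

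The single-gene hairpins of let-7b, let-7d, let-7e, let-7g and miR-98 had separate passengers. Let-7d-3p was the most abundant of these, with 3355, 2944 and 2200 reads in order of age. Let-7e-3p had 367, 220 and 150 reads, and by RPM it was over 2-fold lower from P1 to P17 while its guide was not. Let-7b-3p had 116, 151 and 175 reads, let-7g-3p had 37, 17 and 27, and miR-98-3p had 48, 45 and 30. The guide to passenger log2 ratio was higher at P17 than at P1 by 0.77 for let-7b, 0.44 for let-7d and 0.74 for let-7e. For let-7g and miR-98 the intervals of that change, -0.29 to 1.14 and -1.13 to 0.19, included 0. By RPM, 4 of the 12 passenger names were over 2-fold lower from P1 to P17, beside 46.8% of all 648 miRNAs, and 0 were over 2-fold higher, beside 10.5%, and 2 of those 4 names carried the same reads. With median-of-ratios factors, an alternative chosen for the passengers after their values were seen, 0 were over 2-fold lower, beside 23.9% of all, and let-7b-3p and let-7c-1-3p were 2 over 2-fold higher, beside 25.5%. Let-7a-2-3p did not reach the mean of 1 RPM and is not among the 648. Over the 11 names past that filter the counts lower and higher were the same, 4 and 0 by RPM and 0 and 2 with those factors.

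**Figure D5:**
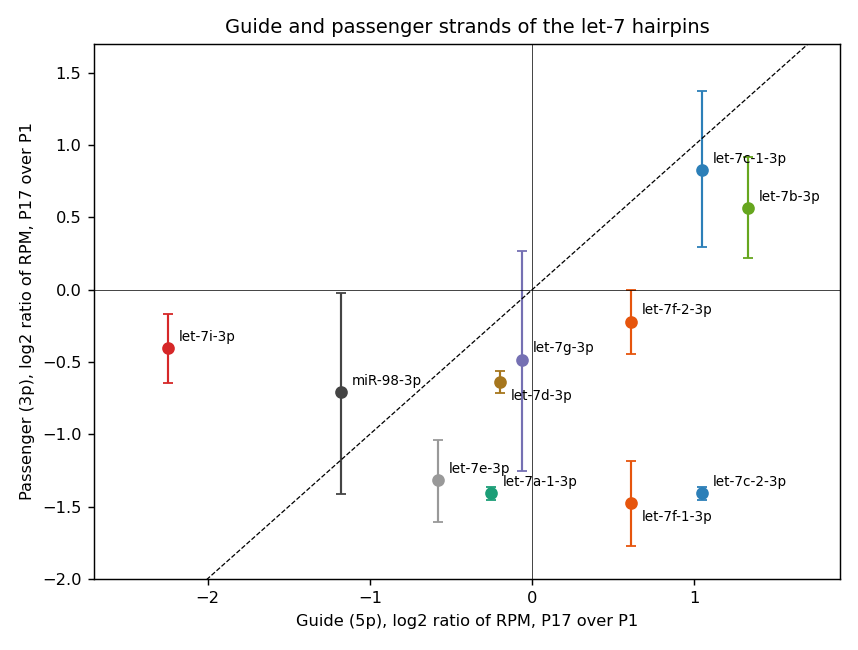
Log2 ratio of P17 over P1 in RPM for each passenger strand against its guide strand, with exact 95% binomial intervals for the passengers, a dashed line of equal change, and let-7a-2-3p left out with 5 and 8 reads. Let-7i lies far left of the line with its passenger at -0.41, miR-98 also lies left, and the other points lie right of it. The let-7a-1 and let-7c-2 points show the same passenger reads, which cannot be assigned to either gene.

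MiRNAs of the miR-99, miR-100 and miR-125 families are encoded beside let-7 genes, and those of the same primary transcripts were compared with their let-7 neighbour. Let-7e and miR-125a-5p, neighbours on chromosome 17, kept a nearly constant ratio of 0.737 at P1, 0.714 at P7 and 0.688 at P17. MiR-99b-5p, the third member of that cluster, did not, and the ratio of let-7e to it was 0.220, 0.238 and 0.360. MiR-99a-5p, encoded with let-7c-1, had 10179, 21442 and 31477 RPM in order of age. It rose with let-7c, and the ratio of let-7c to miR-99a-5p was 1.00, 0.698 and 0.668. MiR-100-5p, encoded with let-7a-2, had 607, 647 and 1776 RPM, and the ratio of let-7a to it was 38.7, 23.9 and 11.1. The let-7c and let-7a guides also come from Mirlet7c-2 and Mirlet7a-1, which lie elsewhere. Their ratios to miR-99a-5p and miR-100-5p therefore mix both genes and cannot be read as ratios within a cluster. By RPM, miR-99a-5p and miR-100-5p were 2 of the 5 neighbours over 2-fold higher from P1 to P17, beside 10.5% of all miRNAs, and miR-99b-5p was the 1 over 2-fold lower, beside 46.8%. With median-of-ratios factors miR-125b-5p joined the first pair at 1.62, so that 3 of 5 were over 2-fold higher, beside 25.5% of all. MiR-99b-5p was then at -0.24, and 0 of 5 were over 2-fold lower, beside 23.9%.

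Other listed miRNAs with the seed GAGGUAG were nearly absent. Let-7k had 18, 15 and 27 reads and miR-1961 had 12, 5 and 15 in order of age. Let-7j is listed with a sequence close to that of let-7i, but with the seed GAGGUAU, shown in capitals below.
mmu-let-7j: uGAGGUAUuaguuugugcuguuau

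Over the shared length let-7j differed from let-7i by G8U, and it counted 18575, 13798 and 7924 reads in order of age. These were 2.20%, 3.15% and 4.35% of the let-7i reads, so let-7j was lower at each age but less steeply than let-7i. Set against the summed reads of the family they came to 0.874%, 0.766% and 0.441%.

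The miRNAs whose pair of step changes was most like that of the summed family were searched among 192 other miRNAs of at least 100 RPM on average, by Euclidean distance over the 2 changes in log2(RPM + 1). MiR-30c-2-3p was nearest at a distance of 0.13, followed by miR-409-5p at 0.15, miR-30e-3p at 0.15, miR-185-5p at 0.19 and miR-101b-3p at 0.20. MiR-30e-3p, for example, had 1504 RPM at P1, 1075 at P7 and 1274 at P17, with the same low point at P7. MiR-30c-2-3p and miR-409-5p were also lowest at P7. In contrast, miR-185-5p went from 293 RPM at P7 to 287 at P17, and miR-101b-3p from 1077 to 1044, so both were lowest at P17.

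The tissue label was checked with miRNAs known from defined cell types. The photoreceptor miR-182-5p ranked 6, 1 and 1 at P1, P7 and P17, and the neural miR-9-5p ranked 1, 2 and 4. Another neural miRNA, miR-124-3p, ranked lower, at 68, 45 and 18, and rose with age where miR-9-5p fell. The liver miR-122-5p was at 2.27 to 5.78 RPM. Of the muscle miRNAs, miR-133a-3p was at 2.12 to 6.00 RPM and miR-1a-3p at 65.1 to 217 RPM. MiR-211-5p, which is known from the pigment epithelium next to the retina, was at 550, 259 and 5315 RPM in order of age. MiR-204-5p, also found in that tissue, was at 14662, 6967 and 9019 RPM. Whether reads of these 2 miRNAs came from that tissue or from the retina itself was not tested. The part of pigment epithelium cells in the levels of the let-7 guides was not tested either.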

How the data were processed

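Small RNA libraries from P1, P7 and P17 mouse retina were analysed, 1 per age. The libraries were made with a NEBNext small RNA kit per the labels. The study's methods name HISAT2 for alignment to mm10, whereas the submitters' processing notes name FastQC and BWA with mm10, and the miRNA annotation and counting rule are not given in the sources used here. Per library, the authors deposited raw counts of reads for 1915 mature miRNAs. Beside them the authors gave RPM values, which equal each count divided by the summed miRNA counts of its library to within 0.0192 RPM. No column of fold changes or p-values was present.

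The deposited RPM was used as given, with log2(RPM + 1), in which changes of scarce miRNAs come out too small, and a filter of a mean of at least 1 RPM (648 miRNAs). A difference was counted when it passed 2-fold. With 1 library per age no test of age was made. Shares have 95% Wilson intervals, ratios of 2 libraries exact binomial intervals, and changes in arm ratios log-scale normal intervals. A floor of 3 reads was 0.263 RPM at P1, 0.235 at P7 and 0.257 at P17. Size factors over 644 miRNAs were 1.503, 0.862 and 0.743 and TMM factors (edgeR) 1.60, 0.808 and 0.774. Alternatives were these scalings, library totals that left out the 10 leading miRNAs of each library, the miR-183 cluster (miR-183, miR-96, miR-182) or the 9 members, pseudocounts of 0.1 and 5 RPM, fold criteria of 1.5 and 4, a 10 RPM filter or none, and pooling of near-identical members.

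The members and lists were chosen with earlier results of these data known. The text names the 9 members, their passengers, 5 cluster neighbours, other miRNAs with the same seed and the 5 most alike by distance, and let-7j and the tissue markers are exceptions to that rule. Sequences and positions came from RefSeq (GRCm38.p6, the build of mm10) and host genes from GENCODE. The steps were tested on simulated data. Calculations ran in R 4.3.3 (edgeR 4.0.16) and Python 3.11.15 (pandas 2.3.3, numpy 2.4.6, matplotlib 3.10.9, scipy 1.17.1).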

Additional observations from a re-analysis of the deposited data

How the results depend on the processing

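No paired analysis was possible because 1 library stands for each age, and for the same reason no replicate could be left out. Counting error is small at this depth for the guides, and the scaling sets most of what follows. The summed log2 ratio from P1 to P7, -0.40 by RPM, was 0.56 with median-of-ratios factors, 0.59 with TMM, 0.23 without the 10 most abundant miRNAs, 0.0101 without the miR-183 cluster, and -0.48 without the 9 members in the total. In the same order it was 0.21, 0.19, -0.12, 0.12 and 0.15 from P7 to P17, and 0.77, 0.78, 0.11, 0.13 and -0.33 from P1 to P17. The median member difference in that order was 0.43, 0.45, 0.0912, -0.12 and -0.61 from P1 to P7, and 0.85, 0.85, 0.18, 0.20 and -0.25 over both steps. At the second step it was 0.42, 0.39 and 0.0887 under the first 3 scalings.

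From P1 to P7, the count of members over 2-fold lower was 0 under the first 4 scalings and under a fold criterion of 4, and 4 under a criterion of 1.5. The count over 2-fold higher from P1 to P7 was 3, 3, 2 and 1 under the first 4 scalings and 1 under a criterion of 1.5. From P7 to P17 the count lower was 0 under a criterion of 4. From P1 to P17 the count lower was 1 under the first 4 scalings and under a criterion of 4, and the count higher was 1 without the 9 members in the total and 0 under a criterion of 4. The share of all 648 miRNAs past 2-fold was computed only by RPM and with median-of-ratios factors. From P1 to P7 it was 44.8% lower and 3.09% higher by RPM, and 11.0% and 9.57% with those factors. Over both steps it was 46.8% and 10.5% by RPM, and 23.9% and 25.5% with those factors. No such share was computed for the other scalings or fold criteria, so how unusual those counts are cannot be said. The scalings act by shifting all members alike. Pooling near-identical members gave a gain of 18.5 points for let-7a with let-7f and 8.96 for let-7b with let-7c. The arm ratio change of let-7a from P1 to P17 was -0.90 with let-7a-2-3p alone, on 5 and 8 reads, against 1.16 with both passengers. The 1.16 is not a value of let-7a alone, because let-7a-1-3p carries the same reads as let-7c-2-3p. Set against that shared passenger, the summed let-7a and let-7c guides changed by 1.69. Pseudocounts of 0.1 and 5 RPM turned the direction of 0 of the 9 members in any comparison. With median-of-ratios factors, chosen after the values were seen, the cluster neighbours over 2-fold lower from P1 to P17 went from 1 to 0 and the passenger names from 4 to 0 lower and from 0 to 2 higher. The other alternatives gave 98 values for the main quantities. Of these, 50 lay, at 2 decimals, within the counting interval of the reported value or, for counts, at no more than 1.5 times it. Those 50 included every value from the other pseudocounts, which hardly move guides this abundant. Of the rest, 32 moved without a change of sign and 16 had the opposite sign. Of 213 values for single members, arm ratios and all miRNAs, 79 stayed within a like tolerance. Of the 9 members, 5 changed sign from P1 to P7 and 4 over both steps with median-of-ratios or TMM factors.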
